A study of Mus musculus with 13 samples.

Results

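Basement membranes are thin sheets of extracellular matrix under epithelia and around vessels, muscle fibres and ducts. Laminins, heterotrimers of an alpha, a beta and a gamma chain, form one of their networks, type IV collagen forms the other, and nidogens and the heparan sulphate proteoglycan perlecan link them. In the normal liver the space between hepatocytes and sinusoidal endothelium lacks a continuous basement membrane, while bile ducts and larger vessels have one, and fibrosis is known for the deposition of basement membrane material along the sinusoids and around proliferating ductules. The 10 genes described here are the nidogens Nid1 and Nid2, the laminin alpha chains Lama2, Lama3, Lama4 and Lama5, the beta chains Lamb1 and Lamb2, the gamma chain Lamc1, and Hspg2, which encodes perlecan. They are 10 of the 23019 genes present in all 3 tables of counts, and all 10 passed the filter on low counts in every comparison. They were chosen by name as a gene family with results of these same mice in view, and which values were looked at is not recorded, so every comparison below counts as used in the choice and its values are a description rather than independent evidence.

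Whole liver RNA was sequenced from 13 C57 mice, aged 3 months, in 3 groups, which the methods describe as males wild type for Gnmt, the gene of a methyltransferase that the microRNA is studied for. No BDL were 5 mice labelled as without bile duct ligation (BDL, surgical closure of the common bile duct, which causes cholestatic injury and fibrosis). The group miR-Ctrl BDL was 4 mice with BDL that received a control oligonucleotide. The group anti-miR-873-5p BDL (below anti-miR BDL) was 4 ligated mice that received an inhibitor of the microRNA miR-873-5p. Both oligonucleotides were injected intravenously, 60 µg per mouse, on days 3 and 5 after surgery, and livers were taken on day 7. No group analysed here is described as having an oligonucleotide with an unligated duct, or a sham operation. Ligation, surgery and injection of the control oligonucleotide therefore cannot be told apart against no BDL. The labels number separate mice within each group, so p-values measure the spread between these mice. Depth ran from 12185333 to 19689037 counts per mouse. Members were covered by 6 to 1905 counts per mouse, with Lama3 the lowest and Nid1 the highest, so the values of Lama3, Lama2 and Lama4 carry the largest counting error.

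The table of anti-miR BDL against miR-Ctrl BDL leaves out miR-Ctrl BDL mouse 3 and anti-miR BDL mouse 2. According to the study's supplement, outlying samples were removed on the basis of clustering and principal components, without naming them. Both mice are in the tables against no BDL, and results are given with and without them. They stood apart in the marker genes of several cell types. Levels below are normalized counts, the CPM that edgeR computes after TMM scaling. Of 9 stellate cell and fibroblast markers, the sums were 158 in miR-Ctrl BDL mouse 3 and 93.9 in anti-miR BDL mouse 2, against 302 to 713 in the other 6 ligated mice and 84.7 to 135 in no BDL, and all 9 were lowest of their group in both mice. The sums of 9 endothelial markers were 41.5 and 58.6, below all other mice, which had 96.1 to 166, with 6 and 7 of the 9 markers lowest of their group. The smooth muscle marker sums of the pair, 9.91 and 10.9, were also below all other mice. Their leukocyte marker sums, 120 and 82.8, were the lowest of their groups. The cholangiocyte markers were mostly low in anti-miR BDL mouse 2 as well, and gave a mixed picture in miR-Ctrl BDL mouse 3. Summed over 6 cholangiocyte markers, the levels were 484 and 233 in this pair, against 1120 to 1727 in the other ligated mice and 45.9 to 135 in no BDL, but Spp1 alone, the osteopontin gene, made up 83.3% and 83.5% of these sums and 92.8% to 96.6% in the other ligated mice. Without Spp1, a sum chosen after the values were seen, miR-Ctrl BDL mouse 3 was the highest of its group at 81, against 43.4 to 67.8, and anti-miR BDL mouse 2 was at 38.4, against 42.1 to 95.7. Of the 6 markers, 4 were lowest of their group in anti-miR BDL mouse 2 and 0 were highest. In miR-Ctrl BDL mouse 3 Spp1 was lowest of its group, and the keratin gene Krt7, at 12.2, and Sox9, at 47.5, were highest. Krt19, Epcam and Cftr were neither lowest nor highest there. The sums of 3 mesothelial markers were highest in the same pair of mice, with 45.8 and 38.8, against 9.48 to 33.3 in the other ligated mice. Most of these sums was Msln (33.2 and 26.9), and without it the highest sum of each group was that of mouse 4, at 14.5 and 15.9. Of 6 hepatocyte markers, 3 were lowest and 2 highest of their group in miR-Ctrl BDL mouse 3. In anti-miR BDL mouse 2, 0 were lowest and 4 highest. The hepatocyte marker Tat was at 3536 and 4838 in the pair, against 424 to 897 in the other ligated mice.

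**Figure D1:**
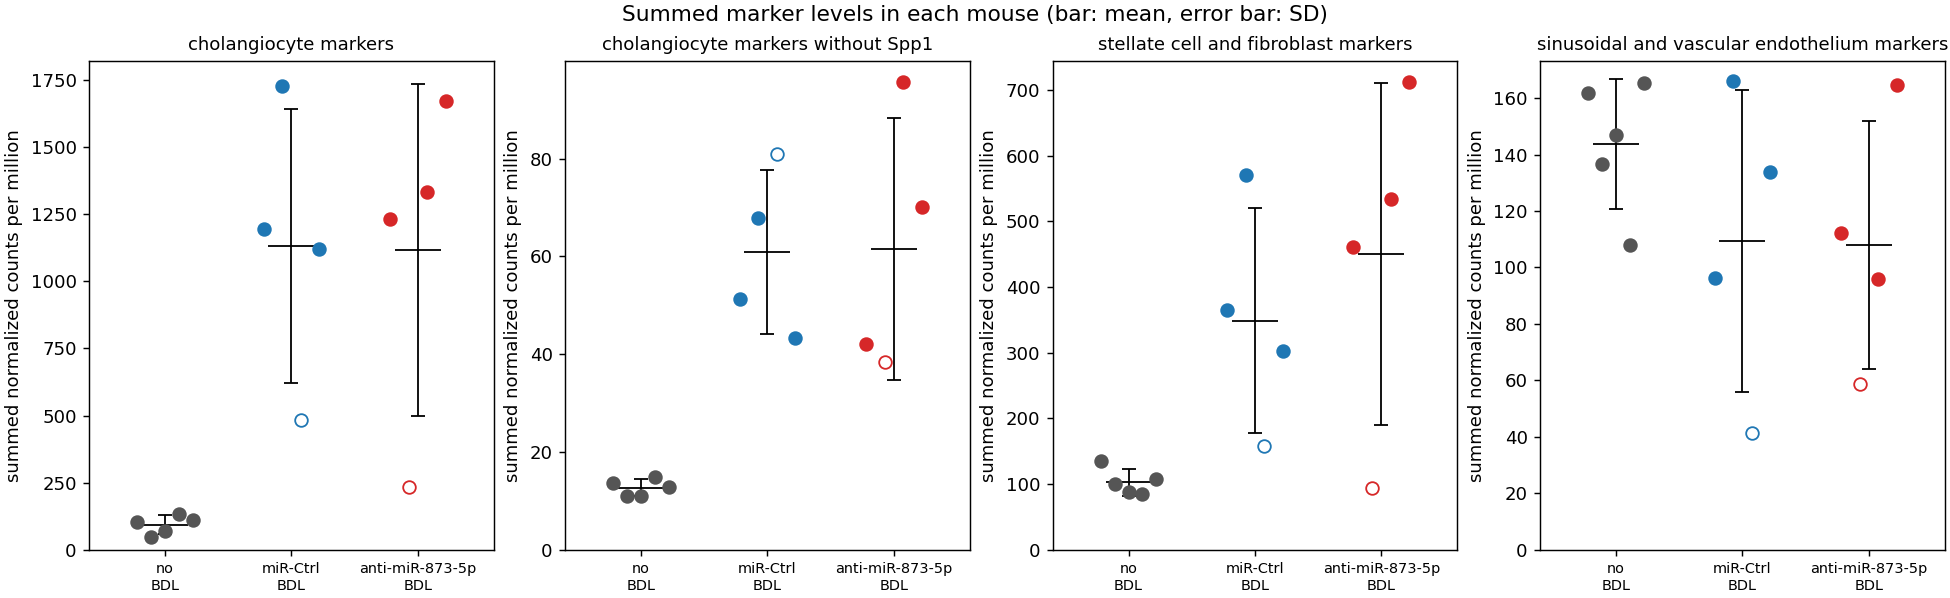
Summed levels of the marker genes of 3 cell types in each mouse, those of cholangiocytes also without Spp1, on the vertical axis in normalized counts, by group on the horizontal axis. Points are mice, open points are miR-Ctrl BDL mouse 3 and anti-miR BDL mouse 2, bars are means and error bars are SD (n = 5, 4 and 4), and both open points lie below all filled points of their group except in miR-Ctrl BDL without Spp1, where the open point is the highest of its group at 81.

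The inhibited microRNA is shown first because the comparison of the ligated groups turns on it. Its mature sequence, from RefSeq (GRCm38.p6, chr4:36668556-36668576, minus strand), has the seed, bases 2 to 8, in capitals.
mmu-miR-873a-5p: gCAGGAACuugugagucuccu
The 7-base complement of this seed, GTTCCTG, was searched on the sense strand in the annotated 3′ untranslated regions of all 10 members. It occurred in 1 of them, Lamc1, whose match lies at chr1:153220327-153220333 on the minus strand of GRCm38 and is in capitals below with its neighbouring bases.
Lamc1 match: aaccccatctaGTTCCTGcactttgtggc
By comparison, 12.8% of the 20646 genes with an annotated 3′ untranslated region held the same 7 bases. The region of Lamc1 is long, 2551 bases, against a median of 799.5 bases over all genes, and those of the other 9 members run from 110 bases in Lamb2 to 2202 in Nid1. A match is a description of letters and not of binding.

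Promoters are shown for members called higher in both comparisons with no BDL, where RefSeq has an entry, which is the case for Nid1, Lama5, Lamb2 and Hspg2. Each run covers 250 bases before to 50 bases after an annotated start in GRCm38.p6, read 5′ to 3′ on the gene's strand, and capitals mark the GC box GGGCGG on either strand.
Nid1 promoter (chr13:13437352-13437651, plus strand): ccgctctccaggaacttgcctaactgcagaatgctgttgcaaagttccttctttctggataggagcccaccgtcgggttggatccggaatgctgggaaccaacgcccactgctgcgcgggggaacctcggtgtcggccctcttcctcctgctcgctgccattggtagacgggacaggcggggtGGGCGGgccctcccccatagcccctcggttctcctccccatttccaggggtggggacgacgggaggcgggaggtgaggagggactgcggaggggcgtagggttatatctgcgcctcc
Lama5 promoter (chr2:180225810-180226109, minus strand): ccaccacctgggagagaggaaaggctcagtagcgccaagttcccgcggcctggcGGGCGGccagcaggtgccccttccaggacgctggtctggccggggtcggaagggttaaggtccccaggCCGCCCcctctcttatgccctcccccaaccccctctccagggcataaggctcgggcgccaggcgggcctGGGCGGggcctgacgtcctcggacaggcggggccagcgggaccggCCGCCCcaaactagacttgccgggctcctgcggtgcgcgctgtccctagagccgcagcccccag
Hspg2 promoter (chr4:137468553-137468852, plus strand): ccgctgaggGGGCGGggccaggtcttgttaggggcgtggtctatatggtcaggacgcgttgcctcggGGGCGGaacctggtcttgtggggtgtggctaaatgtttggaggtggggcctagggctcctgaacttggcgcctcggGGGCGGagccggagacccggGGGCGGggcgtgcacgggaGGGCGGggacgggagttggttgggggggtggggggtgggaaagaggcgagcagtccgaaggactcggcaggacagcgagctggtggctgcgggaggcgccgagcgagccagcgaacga
Lamb2 promoter (chr9:108479612-108479911, plus strand): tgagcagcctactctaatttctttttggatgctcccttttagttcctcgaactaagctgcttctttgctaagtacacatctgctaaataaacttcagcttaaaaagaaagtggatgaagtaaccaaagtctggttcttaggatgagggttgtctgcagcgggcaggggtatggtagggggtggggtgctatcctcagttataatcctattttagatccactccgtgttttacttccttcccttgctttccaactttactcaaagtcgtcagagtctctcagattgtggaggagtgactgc
The promoters of Nid1, Lama5 and Hspg2 were rich in CpG, with 20, 24 and 27 CpG dinucleotides and a GC content of 64.7%, 72.7% and 70.3%. The median over 32851 promoters was 7 CpG and the upper quartile was 20, the number in Nid1. Lamb2 differed from them, with 4 CpG, a GC content of 44.0% and no GC box. A relation of these promoter features to the changes in level was not tested. The GC box occurred in 35.7% of all promoters, and its matches numbered 1 in Nid1, 4 in Lama5 and 5 in Hspg2. Neither the AP-1 motif TGANTCA (in 7.81% of all promoters) nor TATAAA (13.6%), each searched on both strands, was found in any of the 4 windows. Of the promoters not shown, that of Lamb1, called in neither comparison, had 18 CpG and 2 GC boxes. That of Lama2, called higher in anti-miR BDL alone, had 1 CpG and 1 GC box.

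Nid1, which encodes the nidogen that joins the laminin gamma chain to type IV collagen, had the largest change of the 10. The gene (Entrez 18073) lies on chromosome 13 from 13437602 to 13512275 of GRCm38. It had 10.7, 10.1, 7.39, 8.55 and 12.4 normalized counts in the no BDL mice, 115, 112, 113 and 82.8 in miR-Ctrl BDL and 55.3, 66, 90.1 and 61.7 in anti-miR BDL. All ligated mice lay far above all unligated ones, while the ranges of the ligated groups overlapped through miR-Ctrl BDL mouse 4 and anti-miR BDL mouse 3. Against no BDL, Nid1 rose by 3.45 log2 units in miR-Ctrl BDL (10.9-fold, standard error, SE, 0.17, adjusted p = 1.27e-05) and by 2.82 in anti-miR BDL (7.06-fold, SE 0.19, adjusted p = 0.000214). These and all adjusted p values below come from the quasi-likelihood test of edgeR, adjusted by Benjamini-Hochberg over all genes tested. The mice with low stellate cell and endothelial marker sums were at 113 (miR-Ctrl BDL mouse 3) and 66 (anti-miR BDL mouse 2), within the range of the other mice of their groups. Between the ligated groups, the log2 fold change of Nid1 was -0.59 (95% confidence interval -1.10 to -0.07, adjusted p = 0.763), which did not pass the threshold. Adding the left-out pair of mice gave -0.63 (adjusted p = 0.980).

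Nid2, the second nidogen, did not follow Nid1. It ran from 5.84 to 14.0 normalized counts in no BDL, from 3.58 to 11.6 in miR-Ctrl BDL and from 5.16 to 9.88 in anti-miR BDL, and the 3 groups overlapped. Its log2 fold change was 0.10 in miR-Ctrl BDL (95% confidence interval -0.69 to 0.90, adjusted p = 0.847) and -0.20 in anti-miR BDL (-0.82 to 0.43, adjusted p = 0.654). These intervals leave out a change of the size of that of Nid1. The sign of the Nid2 value was not stable. In anti-miR BDL it was 0.64 when libraries were scaled by their size alone and 0.05 without no BDL mouse 5, and in miR-Ctrl BDL it was -0.04 without mouse 1 or without mouse 4 of that group and -0.01 without no BDL mouse 4. Of the 50-base windows of Nid2 transcripts, 7.50% also lie in the overlapping gene Rtraf, so some of its counts may belong there.

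Per kilobase of exon, Nid1 made up 39.8% to 52.2% of the summed nidogen level in no BDL (46.8% ± 5.13, SD, n = 5). In the ligated mice it made up 84.1% to 95.9% in miR-Ctrl BDL (89.5% ± 4.90, SD, n = 4) and 80.7% to 90.5% in anti-miR BDL (87.0% ± 4.6, SD, n = 4). Thus the nidogens stood at similar levels in unligated liver and Nid1 was far above Nid2 in each of the 8 ligated livers. Relative to Lamc1, the laminin chain to which nidogens bind, the ratio of the levels per kilobase of Nid1 was 0.976 ± 0.171 (SD, n = 5) in no BDL, 4.83 ± 1.67 (SD, n = 4) in miR-Ctrl BDL and 3.30 ± 0.645 (SD, n = 4) in anti-miR BDL.

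Lama5, the alpha chain of most adult epithelial and vascular basement membranes, was the laminin gene with the largest rise. The gene (Entrez 16776) lies on chromosome 2 from 180176373 to 180225904 of GRCm38. Its normalized counts were 4.75, 2.86, 5.15, 3.78 and 2.62 in no BDL, 12.1, 17.6, 17.1 and 11.5 in miR-Ctrl BDL and 10.7, 20.5, 21.4 and 18.6 in anti-miR BDL. Every ligated mouse was above every unligated one, including miR-Ctrl BDL mouse 3 and anti-miR BDL mouse 2. The log2 fold change was 1.95 in miR-Ctrl BDL (3.85-fold, SE 0.23, adjusted p = 0.000375) and 2.24 in anti-miR BDL (4.72-fold, SE 0.26, adjusted p = 0.00111). Between the ligated groups it was 0.31 (95% confidence interval -0.35 to 0.98, adjusted p = 0.863). Counts of Lama5 in the same mouse differed between tables by at most 4 reads (2.03%), and each comparison used its own table.

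Lama3, the alpha chain of laminins that anchor epithelia through hemidesmosomes, went the other way. No BDL mice had 3.11, 6.77, 4.47, 3.86 and 4.77 normalized counts, miR-Ctrl BDL mice 2.11, 1.01, 0.500 and 1.08, and anti-miR BDL mice 3.13, 0.911, 2.17 and 1.67. The miR-Ctrl BDL mice were all below no BDL, and in anti-miR BDL mouse 1 just reached the lowest no BDL mouse. Lama3 fell by 1.91 log2 units in miR-Ctrl BDL (SE 0.38, adjusted p = 0.00422) and by 1.18 in anti-miR BDL (SE 0.35, adjusted p = 0.0386). The first call held in all 9 fits that each left out 1 mouse. The second was lost in 6 of 9, without no BDL mouse 2, 3, 4 or 5 and without anti-miR BDL mouse 3 or 4, with adjusted p of 0.0557 to 0.104. The second was also lost when libraries were scaled by size alone, at -0.35 (adjusted p = 0.386). Lama3 rested on 6 to 71 counts per mouse.

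Lama2, the alpha chain of muscle and mesenchymal basement membranes, had 2.68, 0.763, 1.37, 1.40 and 0.795 normalized counts in no BDL, 2.47, 3.16, 0.667 and 2.58 in miR-Ctrl BDL and 3.63, 1.75, 5.49 and 5.85 in anti-miR BDL. It rose in anti-miR BDL by 1.61 on the log2 scale (SE 0.44, adjusted p = 0.0284), and in miR-Ctrl BDL the value was 0.71 (SE 0.47, adjusted p = 0.269). The rise was not past the threshold in 5 of the 9 fits without 1 mouse, namely no BDL mouse 2, 3 or 4 and anti-miR BDL mouse 3 or 4, with adjusted p of 0.0639 to 0.0872. Lama4, the alpha chain of endothelial and mesenchymal basement membranes, had 3.63, 1.62, 3.61, 4.03 and 2.15 in no BDL, 2.35, 2.68, 1.33 and 2.22 in miR-Ctrl BDL and 2.94, 1.67, 5.25 and 5.36 in anti-miR BDL. In miR-Ctrl BDL Lama4 had a log2 fold change of -0.45 (adjusted p = 0.295), which became 0.35 with library size alone, and 0.38 (adjusted p = 0.514) in anti-miR BDL. In both genes miR-Ctrl BDL mouse 3 was the lowest of all 13 mice, and anti-miR BDL mouse 2 was the lowest of its group. These are the mice with low endothelial and stellate cell marker sums. The pattern was not particular to Lama2 and Lama4. It was the same for Lama3 (0.500 and 0.911) and Nid2 (3.58 and 5.16). Lamb1, Lamb2, Lamc1 and Hspg2 were also lowest of their group in both mice, while Nid1 and Lama5 were not. The part of cell composition was not tested. In whole liver RNA, fewer cells of a type and less RNA per cell cannot be told apart.

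**Figure D2:**
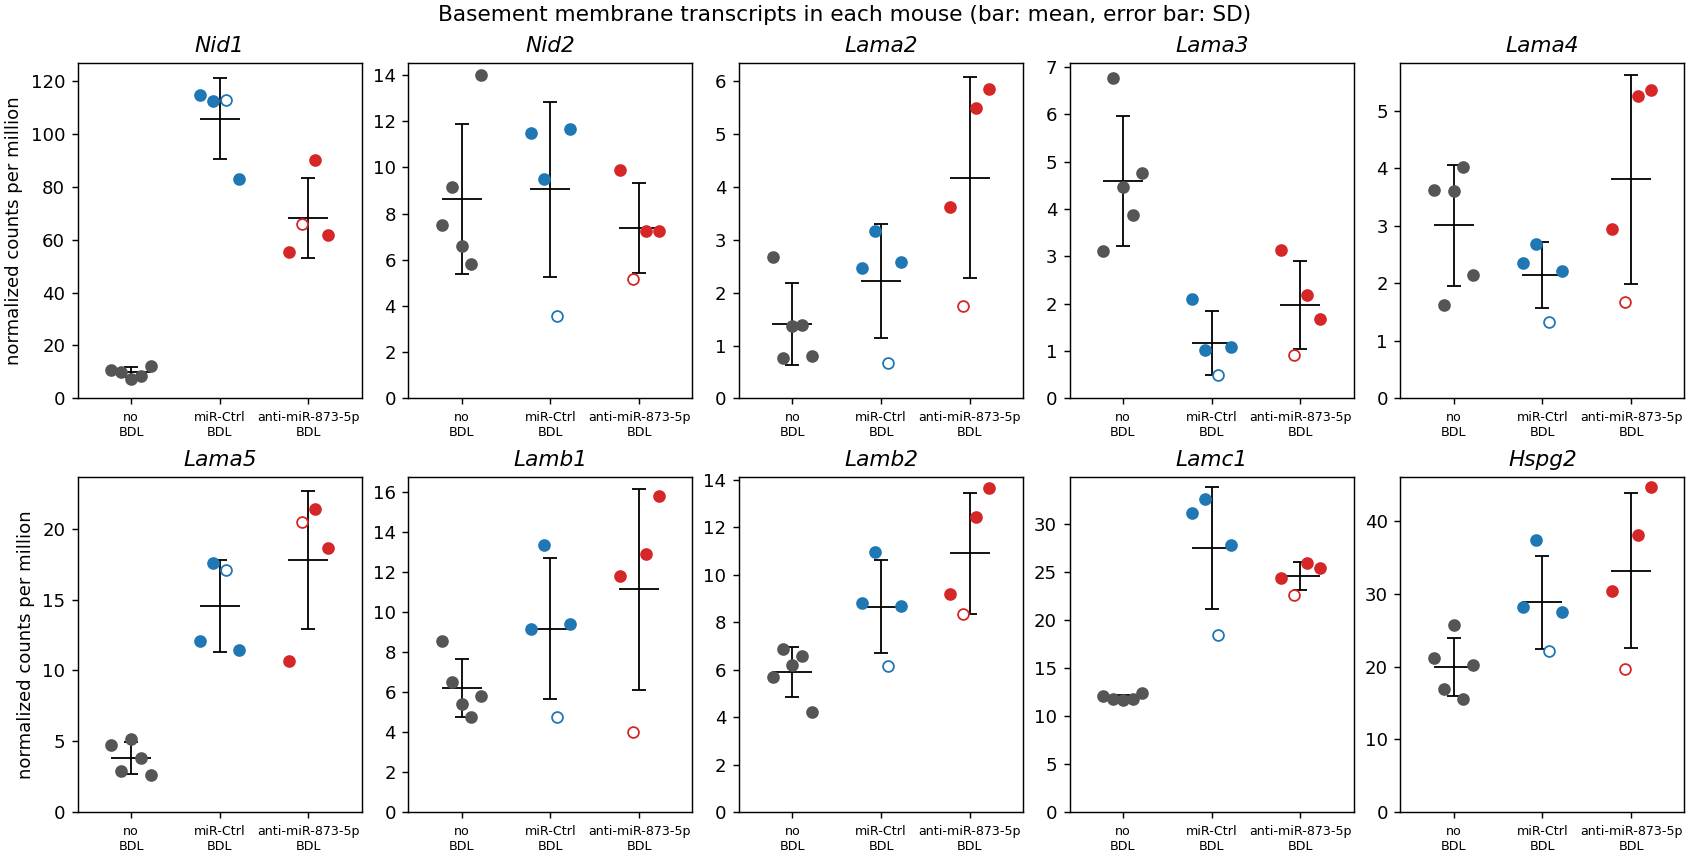
Level of each member in each mouse, on the vertical axis in normalized counts with an own scale for each gene, by group on the horizontal axis. Points are mice, open points are miR-Ctrl BDL mouse 3 and anti-miR BDL mouse 2, bars are means and error bars are SD (n = 5, 4 and 4). Nid1, Lama5 and Lamc1 separate all ligated from all unligated mice, and the open points lie at or near the bottom of their groups for Nid2, Lama2, Lama3, Lama4, Lamb1, Lamb2, Lamc1 and Hspg2 but not for Nid1 and Lama5.

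The makeup of the alpha chains differed between unligated and ligated livers. With the non-member Lama1 included and levels taken per kilobase of exon, Lama5 was 22.4% ± 5.63 (SD, n = 5) of the summed alpha chain level in no BDL, 62.2% ± 16.6 (SD, n = 4) in miR-Ctrl BDL and 59.5% ± 17.4 (SD, n = 4) in anti-miR BDL. Its share ran from 16.0% to 29.0% in no BDL and from 40.6% to 84.9% in the ligated mice, without overlap. The highest shares, 84.9% and 82.1%, belonged to miR-Ctrl BDL mouse 3 and anti-miR BDL mouse 2. Over the same groups the share of Lama3 was 28.6% ± 7.95, 5.22% ± 3.02 and 7.04% ± 3.85, and that of Lama4 was 16.8% ± 6.25, 8.43% ± 1.48 and 11.4% ± 3.87. The share of Lama2 was 5.80% ± 3.37, 6.30% ± 2.68 and 9.30% ± 3.09, with ranges that overlapped. These shares are descriptions of these mice, with no test.

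**Figure D3:**
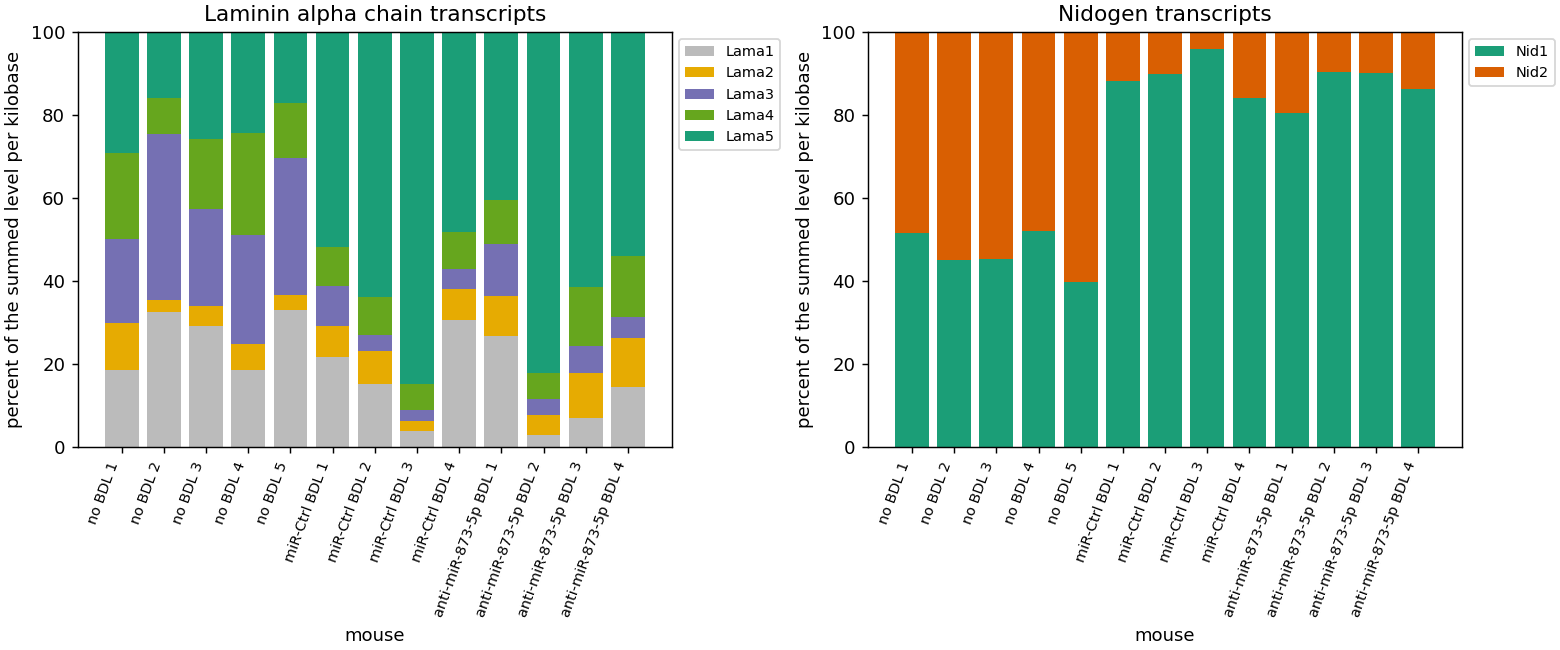
Composition of the laminin alpha chain transcripts (left) and of the nidogen transcripts (right) in each mouse, as percent of the summed level per kilobase of exon. Each bar is 1 mouse. Lama5 takes 16.0% to 29.0% in no BDL and 40.6% to 84.9% after ligation, and Nid1 takes 39.8% to 52.2% and 80.7% to 95.9%.

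Lamc1, the gamma chain shared by most laminins, rose in both ligated groups from a no BDL level with little spread. The gene (Entrez 226519) lies on chromosome 1 from 153218922 to 153332786 of GRCm38. It had 12.1, 11.8, 11.7, 11.8 and 12.4 normalized counts in no BDL, 31.1, 32.6, 18.5 and 27.9 in miR-Ctrl BDL and 24.4, 22.7, 26 and 25.4 in anti-miR BDL. All ligated mice were above all unligated ones, and miR-Ctrl BDL mouse 3 was the lowest of the ligated. The log2 fold change was 1.23 in miR-Ctrl BDL (2.35-fold, SE 0.16, adjusted p = 0.000539) and 1.07 in anti-miR BDL (2.09-fold, SE 0.09, adjusted p = 0.000273). Both calls held in all 9 fits that each left out 1 mouse, as did those of Nid1 and Lama5.

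The beta chains changed less. Lamb2, a beta chain of vascular and neuromuscular basement membranes, had 4.21 to 6.86 normalized counts in no BDL, 6.17 to 11 in miR-Ctrl BDL and 8.35 to 13.7 in anti-miR BDL. Lamb2 rose by 0.58 log2 units in miR-Ctrl BDL (1.5-fold, SE 0.20, adjusted p = 0.0460) and by 0.92 in anti-miR BDL (1.89-fold, SE 0.20, adjusted p = 0.0129). The second call held in all 9 fits without 1 mouse. The first held in 1 of 9, without miR-Ctrl BDL mouse 3 (0.71, adjusted p = 0.0111), and adjusted p reached 0.139 in the others. Lamb1, the beta chain of most embryonic and many adult laminins, had 4.77 to 8.55 in no BDL, 4.75 to 13.4 in miR-Ctrl BDL and 4.02 to 15.8 in anti-miR BDL. The lowest value in each ligated group came from miR-Ctrl BDL mouse 3 and from anti-miR BDL mouse 2. The log2 fold change of Lamb1 was 0.60 (adjusted p = 0.122) and 0.88 (adjusted p = 0.0910), which did not pass. Without miR-Ctrl BDL mouse 3 it was 0.80 (adjusted p = 0.0128), and without anti-miR BDL mouse 2 it was 1.15 (adjusted p = 0.00321), both past the threshold. The share of Lamb1 in the summed level per kilobase of Lamb1 and Lamb2 was 39.2% ± 7.33 (SD, n = 5) in no BDL, 38.4% ± 4.52 (SD, n = 4) in miR-Ctrl BDL and 36.8% ± 9.57 (SD, n = 4) in anti-miR BDL, within the spread between mice.

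Hspg2, which encodes perlecan, had 15.5 to 25.7 normalized counts in no BDL, 22.2 to 37.5 in miR-Ctrl BDL and 19.7 to 44.7 in anti-miR BDL, with overlap between groups. It rose by 0.56 log2 units in miR-Ctrl BDL (1.48-fold, SE 0.18, adjusted p = 0.0356) and by 0.77 in anti-miR BDL (1.71-fold, SE 0.23, adjusted p = 0.0411). Both calls were near the threshold. The first was lost in 7 of the 9 fits without 1 mouse, in all but those without no BDL mouse 3 or miR-Ctrl BDL mouse 3, with adjusted p up to 0.109. The second was lost in 7 of 9, in all but those without no BDL mouse 3 or anti-miR BDL mouse 2, with adjusted p up to 0.126.

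In number, 5 of the 10 members were called higher in miR-Ctrl BDL (Nid1, Lama5, Lamb2, Lamc1 and Hspg2), where 19.1% of all 13072 genes tested were, and 1 was called lower (Lama3), where 16.6% of all genes were. In anti-miR BDL, 6 were called higher (the same 5 and Lama2), where 13.1% of all 13130 genes tested were, and 1 was called lower (Lama3), where 8.44% of all genes were. Since the members were chosen with these comparisons in view, nothing is read from these counts. The median log2 fold change of the members was 0.59 in miR-Ctrl BDL and 0.90 in anti-miR BDL, beside -0.01 over all genes in both. Both comparisons use the same 5 no BDL mice. Under the 8 other settings that left out no mouse, the calls of Lamb2 and Hspg2 in miR-Ctrl BDL were lost in 3 and 2, and those of Lama3 and Hspg2 in anti-miR BDL in 3 and 1. Those of Nid1 and Lamc1 held in all 8 in both comparisons, and those of Lama5 in the 7 that gave it a value. When libraries were scaled by size alone, the median of all genes moved to 0.79 and 0.82 and that of the members to 1.43 and 1.76, so that relative to all genes the members stood 0.63 and 0.95 higher, against 0.60 and 0.91 in the scaling used here.

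**Figure D4:**
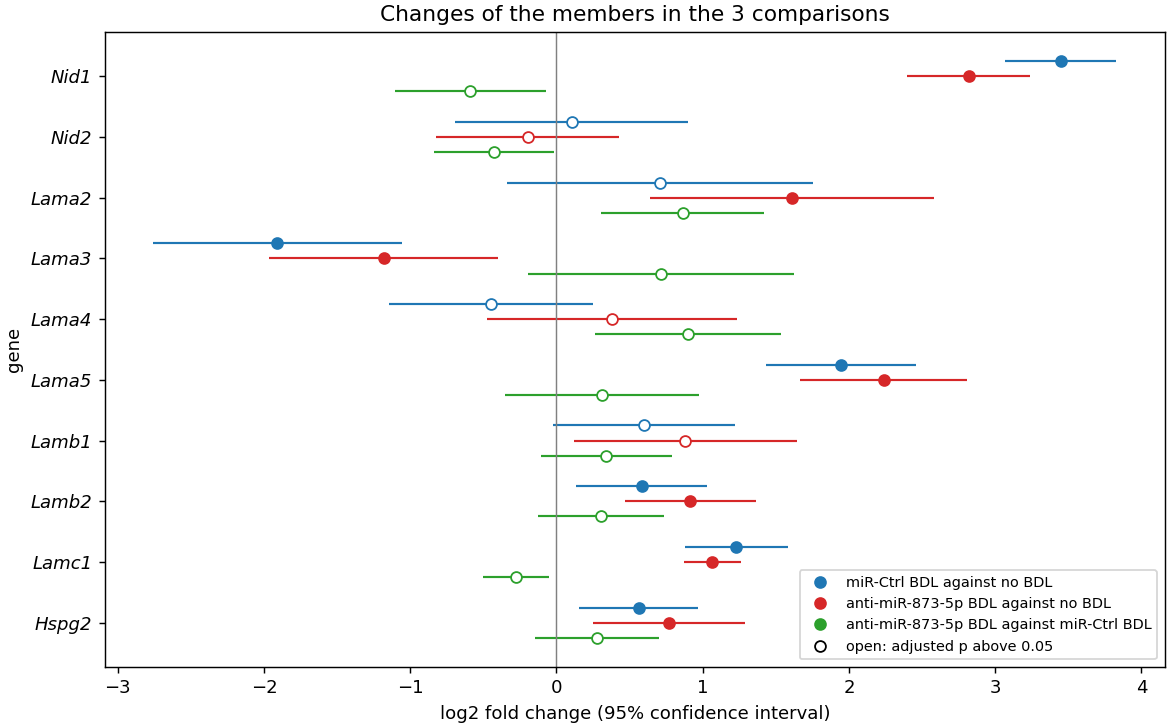
Log2 fold change of each member in the 3 comparisons, on the horizontal axis, with 95% confidence intervals. Filled points have an adjusted p of at most 0.05 in edgeR, open points do not. Nid1 lies at 3.45 and 2.82 against no BDL, Lama3 at -1.91 and -1.18, and every point of the comparison of the ligated groups is open.

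The comparison of anti-miR BDL with miR-Ctrl BDL asked whether blocking the microRNA changed expression in ligated liver. None of the 10 members passed the threshold there, and neither did any other gene in edgeR, 0% of 13746 genes tested with 3 mice per group. At an unadjusted p under 0.05 there were 863 genes (6.28%), and DESeq2 called 30. Among the members, 5 had an unadjusted p under 0.05, namely Lama2, Lama4, Lamc1, Nid1 and Nid2. Lama2 had the largest positive values together with Lama4, at 0.86 (95% confidence interval 0.31 to 1.42, unadjusted p = 0.00781, adjusted p = 0.757) and 0.90 (0.26 to 1.53, unadjusted p = 0.0122, adjusted p = 0.757) on the log2 scale. For both, the 3 anti-miR BDL mice were above the 3 miR-Ctrl BDL mice. With all 4 mice of each group the values were 0.90 and 0.82 (adjusted p = 0.980 for both), and the groups overlapped. Lamc1 was the third member whose groups did not overlap, with a log2 fold change of -0.28 (95% confidence interval -0.51 to -0.05, unadjusted p = 0.0223, adjusted p = 0.757), and -0.16 (adjusted p = 0.980) with all 4 mice. In total 3 of the 10 members did not overlap, where 11.4% of all genes did not. The values of the other members lay between -0.59 for Nid1 and 0.72 for Lama3, and 7 of the 10 were positive, with a median of 0.31 beside 0.01 over all genes. Intervals of this width do not show that the groups were alike. That of Hspg2, for example, ran from -0.15 to 0.70.

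Per kilobase of exon, the order of the members by mean level in no BDL was Nid2, Lamc1, Nid1, Hspg2, Lamb2, Lamb1, Lama3, Lama5, Lama4 and Lama2. The first 4 lay at 1.67 ± 0.627, 1.45 ± 0.0345, 1.42 ± 0.280 and 1.39 ± 0.277 normalized counts per kilobase (SD, n = 5) and were within each other's spread. Lamb2 followed at 0.971 ± 0.171 and Lamb1 at 0.626 ± 0.147. At the lower end, Lama3, Lama5 and Lama4 at 0.428 ± 0.128, 0.337 ± 0.0982 and 0.249 ± 0.0874 could not be separated from their neighbours, and Lama2 was lowest at 0.0858 ± 0.0475. The order depends on the length used. The longest transcript has 6046 bases in place of 12068 for Lama4 and 5784 in place of 9917 for Lamb1. With that length, Lama4 stood above Lama3 and Lama5 in no BDL, and Lamb1 above Lamb2. In miR-Ctrl BDL Nid1 led by a wide margin, at 15.2 ± 2.21 (SD, n = 4), followed by Lamc1 at 3.33 ± 0.766 and Hspg2 at 2.02 ± 0.445. Nid2 at 1.75 ± 0.730, Lamb2 at 1.42 ± 0.323 and Lama5 at 1.28 ± 0.283 overlapped. Lama4, Lama2 and Lama3 closed the order at 0.178 ± 0.0477, 0.136 ± 0.0660 and 0.109 ± 0.0627. In anti-miR BDL the leaders were again Nid1 at 9.83 ± 2.19 (SD, n = 4), Lamc1 at 2.98 ± 0.174 and Hspg2 at 2.32 ± 0.750.

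Of the laminin chains that are not members, Lamb3, a beta chain of epithelial laminin, rose in anti-miR BDL by 1.02 (adjusted p = 0.0267), and its value in miR-Ctrl BDL was 0.37 (adjusted p = 0.380). The call was lost in 5 of 9 fits without 1 mouse (no BDL mouse 2, 3 or 4, anti-miR BDL mouse 3 or 4), with adjusted p up to 0.0823. The values of Lama1 were -0.02 (adjusted p = 0.979) and -0.21 (adjusted p = 0.805), and those of Lamc3 -0.69 (adjusted p = 0.255) and 0.05 (adjusted p = 0.943).

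These chains belong to a list of 29 other basement membrane genes, of which 22 could be tested in miR-Ctrl BDL and 23 in anti-miR BDL. Of these, 9 were called higher and 2 lower in miR-Ctrl BDL, and 11 higher and 1 lower in anti-miR BDL, with medians of 0.39 and 0.71 on the log2 scale. Over all genes 19.1% and 13.1% were called higher, 16.6% and 8.44% were called lower and the median was -0.01. These values apply to the lists and markers that follow as well. Col4a1, an alpha chain of the collagen network, rose by 2.11 (adjusted p = 0.00195) and 1.90 (adjusted p = 0.00344). Fbln2 and Fbln1, fibulins that bind nidogen and laminin, rose by 2.21 and 2.16 and by 1.19 and 1.75. Sparc, a collagen-binding matricellular protein, rose by 1.5 and 1.84, and Smoc2, of the same family, by 1.78 and 2.00. The highest adjusted p among these genes was 0.0274, for Fbln1 in miR-Ctrl BDL. That call was lost in 7 of 9 fits without 1 mouse, in all but those without no BDL mouse 5 or miR-Ctrl BDL mouse 3, with adjusted p up to 0.0835, and in 2 of the 8 other settings. In anti-miR BDL the call of Fbln1 was lost in 2 of 9, without mouse 3 or 4 of that group (adjusted p up to 0.0573). The genes called lower were Fras1, an epithelial basement membrane protein, at -1.42 and -0.86 (adjusted p = 0.00186 and 0.0335), and, in miR-Ctrl BDL, Col18a1 at -0.45 (adjusted p = 0.0346), both named after their values were seen. The anti-miR BDL call of Fras1 was lost in 5 of 9 fits without 1 mouse (no BDL mouse 1, 3 or 4, anti-miR BDL mouse 3 or 4), with adjusted p up to 0.0873, and in 2 of 8 other settings. That of Col18a1 was lost in 7 of 9, in all but those without no BDL mouse 5 or miR-Ctrl BDL mouse 3, with adjusted p up to 0.0910, and its value turned to 0.35 with library size alone. Summed levels of the list ran from 1254 to 1591 normalized counts in no BDL and from 1260 to 1615 in the ligated mice, which overlap. Col18a1 alone made up 48.7% to 82.5% of these sums. Without it, a sum chosen after the values were seen, they ran from 279 to 367 in no BDL and from 485 to 778 in the ligated mice, with no overlap.

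Laminin and collagen receptors connect cells to the basement membrane. Of 12 laminin receptor genes 11 could be tested, and 7 were called higher and 0 lower in each comparison with no BDL, with medians of 1.01 and 0.89. Ddr1, a receptor tyrosine kinase for collagens, rose by 3.91 (adjusted p = 5.4e-05) and 3.76 (adjusted p = 0.000278). Its level was 2.81 ± 1.01 normalized counts (SD, n = 5) in no BDL, 42.1 ± 10.9 (SD, n = 4) in miR-Ctrl BDL and 37.7 ± 11.9 (SD, n = 4) in anti-miR BDL. Bcam, the Lutheran receptor for Lama5, rose by 2.18 (adjusted p = 0.000124) and 2.57 (adjusted p = 0.000720), from 3.52 ± 0.810 to 15.7 ± 3.51 and 20.5 ± 7.55. The integrin genes Itga6, Itgb4 and Itga3, which form laminin receptors of epithelia, rose by 2.08, 1.80 and 1.01 in miR-Ctrl BDL and by 1.86, 2.35 and 1.2 in anti-miR BDL, with adjusted p of at most 0.0153. The anti-miR BDL call of Itga6 was lost without mouse 3 of that group (adjusted p = 0.0526). Counts of Itga6 differ between the tables, so its values are those of each table alone. Sdc1, a cell surface heparan sulphate proteoglycan, rose by 1.08 (adjusted p = 0.000749) and 0.89 (adjusted p = 0.00918).

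Of 11 genes for proteases of the basement membrane and their inhibitors, 9 were called higher and 0 lower in each comparison, with medians of 1.83 and 1.92. The gelatinase Mmp2 rose by 2.43 (adjusted p = 0.00140) and 3.44 (adjusted p = 0.000613), from 1.95 ± 0.432 normalized counts to 10.3 ± 5.20 and 20.8 ± 9.85. Mmp9, the other gelatinase, rose by 3.13 and 2.46, the cathepsin gene Ctss by 2.28 and 2.05, and Plau, the urokinase gene, by 1.83 and 1.92, with adjusted p of at most 0.0260. In anti-miR BDL the call of Mmp9 was lost in 6 of 9 fits without 1 mouse (no BDL mouse 1, 2, 3 or 4, anti-miR BDL mouse 3 or 4), with adjusted p up to 0.0876, that of Ctss in 2 of 9 (anti-miR BDL mouse 3 or 4, up to 0.0531) and that of Plau in 1 (anti-miR BDL mouse 3, 0.0505). Timp1, an inhibitor of metalloproteinases, went from 0 to 4 counts per mouse in no BDL to 93 to 605 in miR-Ctrl BDL and 79 to 216 in anti-miR BDL (adjusted p = 0.000614 and 0.000310). Mmp7, the metalloproteinase matrilysin, went from 0 to 6 counts to 57 to 404 and 19 to 428 (adjusted p = 0.00152 and 0.00296). In the comparison of the ligated groups no gene of these 3 lists passed the threshold in edgeR, and the list medians were 0.37, 0.17 and -0.05.

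**Figure D5:**
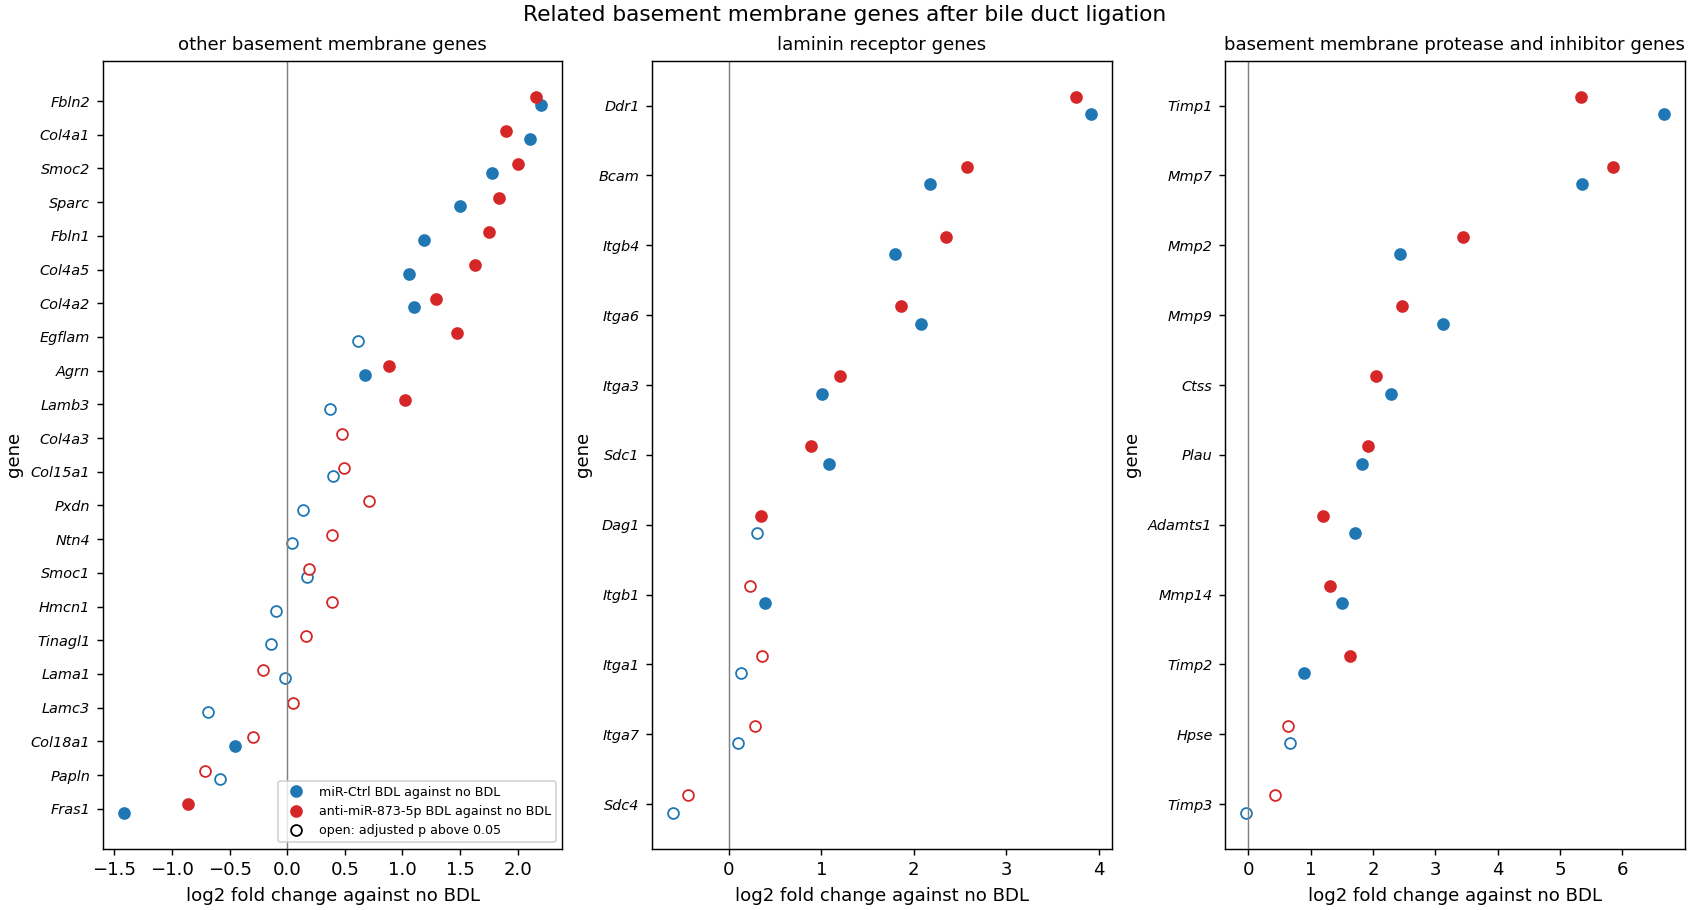
Log2 fold change against no BDL, on the horizontal axis, of the tested genes of 3 lists apart from 1 gene, other basement membrane genes, laminin receptor genes, and protease and inhibitor genes. Blue points are miR-Ctrl BDL, red points anti-miR BDL, and filled points have an adjusted p of at most 0.05 in edgeR. The members of the receptor and protease lists that passed all lie to the right of 0.

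Markers of liver cell types moved to differing degrees in the same comparisons. Of 6 cholangiocyte markers 6 were called higher in both, with median log2 fold changes of 2.63 and 3.12, and of 9 stellate cell and fibroblast markers 4 were, with medians of 1.14 and 1.29. Of 9 endothelial markers 1 was called higher and 1 lower in each, with medians of -0.13 and -0.25. Of 6 hepatocyte markers 0 were called higher and 4 and 2 lower. Over all genes, 16.6% and 8.44% were called lower. Of 3 mesothelial markers 3 were called higher, their sum being at most 0.329 normalized counts in no BDL and 9.48 to 45.8 in the ligated mice. Of 4 leukocyte markers tested 3 and 1 were called higher, and of 3 smooth muscle markers 1 and 0. The mesothelial sum was 0 in no BDL mice 2 and 5, no other list summed to 0 in any mouse, and no marker was at 0 in all mice of no BDL. The part of these cells in the members' changes was not tested.

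By their profile over the 13 mice, the genes most like the mean standardized log2 level of the 10 members, among 12630 other genes, were Pdgfrb, Col6a3, Itgb5, Cx3cr1, Sh2d4a, P3h3, Trim35 and Thbs2, with Pearson's r of 0.983 to 0.963. Within the 8 ligated mice alone their r was 0.960 to 0.979. Pdgfrb, the receptor of platelet-derived growth factor on stellate cells and pericytes, rose from 7.99 normalized counts in no BDL to 17.2 in miR-Ctrl BDL and 24.2 in anti-miR BDL (group means). Members differed in how far they followed the others. Over the 8 ligated mice, r with the mean of the other 9 members was 0.943 for Lama2, 0.934 for Lamb1, 0.904 for Hspg2, 0.900 for Lamb2 and 0.865 for Lama4. It was 0.634 for Lamc1, 0.621 for Lama3 and 0.510 for Nid2, and lowest at -0.0762 for Lama5 and -0.239 for Nid1. These are descriptions. The levels of different genes in a mouse come from the same library, and the mice of a group share treatment.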

How the data were processed

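Per the labels and the methods, the authors extracted whole liver RNA with TRIzol, made TruSeq RNA v2 libraries, which do not keep strand, ran them on a HiScanSQ (50 nt, single reads) and mapped them to mm10 with TopHat. CASAVA 1.8.2, Trim Galore, FastQC and DESeq2 are named in the submitters' processing notes. The program that counted the reads is not given in the sources used here. The authors deposited raw counts per Entrez gene in 3 tables, 1 per comparison, for 5 no BDL, 4 miR-Ctrl BDL and 4 anti-miR-873-5p BDL (anti-miR BDL) mice, and 0 columns were left out. The tables hold 23079 or 23725 genes and were counted with slightly different gene sets, so that some genes have other counts in each.

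The tests used edgeR 4.0.16 in R 4.3.3 (filterByExpr, TMM scaling, quasi-likelihood test, Benjamini-Hochberg adjusted p of 0.05 over all genes tested), within each table, with limma 3.58.1 and DESeq2 1.42.0 for alternatives. The script was tested on simulated data. A standard error is |log2 fold change| divided by √F of the test. Levels are TMM-scaled CPM over all 13 mice, and levels per kilobase divide them by the union of GENCODE M21 exons. Sequences are from RefSeq and GENCODE M21. The members and lists were chosen with earlier results of these data known. Named are the 10 members, from each related list up to 6 genes with the largest change among those past the threshold against no BDL, of which 1 gene is not reported here, and the 8 genes most like the members (mean of at least 10 counts, log2 with a pseudocount of 1). Alternatives were other scalings, filters, tests and thresholds, all groups in 1 fit, all 4 mice of each group, mouse number as a replicate block, the longest transcript as length, and leaving out each mouse.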

Additional observations from a re-analysis of the deposited data

Results flagged for a closer look

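In groups of 4 or 5 mice, the member levels and chain shares were searched for single mice far from the others of their group with Dixon's test, in 45 groups of values. It marks about 1 in 20 groups by chance, and it marked 2. Nid1 in miR-Ctrl BDL mouse 4 was at 82.8 normalized counts, and the nearest of the other 3 mice was at 112. The share of Lama2 in the laminin alpha chain level of miR-Ctrl BDL mouse 3 was 2.31%, and the nearest of the other 3 mice was at 7.36%. That mouse is one of the pair left out of the table of the ligated groups.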

How the results depend on the processing

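Depth limits the lowest members, Lama3, Lama2 and Lama4, most. Against no BDL, 6 members were called in miR-Ctrl BDL, 3 with all 3 groups in 1 fit, where Lama5 has no value, and 4 to 7 when a mouse was left out. In anti-miR BDL 7 were called, and 4 to 8 when a mouse was left out, with 4 without no BDL mouse 2 or 4 or without anti-miR BDL mouse 3 or 4. With mouse number as a replicate block the calls were 4 and 5. Same-numbered mice did not deviate together against no BDL, with correlations of -0.21 to 0.0734. Of the 2 pairs of ligated mice, those numbered 1 had a correlation of 0.385 and those numbered 4 of -0.0414. The labels name no pairs, so the numbers were not taken as pairs, and what the value of 0.385 reflects was not tested. No member was called between the ligated groups under any alternative. Over all genes, 4666 were called in miR-Ctrl BDL, 9635 with library size alone, and 3775 to 5710 when a mouse was left out. In anti-miR BDL 2823 were called, 10194 with library size alone, 4723 without the 20 most abundant genes in it, and 1261 to 4317 when a mouse was left out, the highest without anti-miR BDL mouse 2. Between the ligated groups DESeq2 called 30, and 0 to 1 were called when a mouse was left out, the 1 without anti-miR BDL mouse 3. Of the other basement membrane genes, 12 were called in anti-miR BDL, 19 with library size alone and 7 to 15 when a mouse was left out, with 7 without anti-miR BDL mouse 3. The log2 fold change of Nid2 turned sign in miR-Ctrl BDL, with 1 mouse left out, from -0.038 to 0.35. In anti-miR BDL it turned to 0.64 with library size alone, 0.16 without the 20 most abundant genes and 0.039 with the replicate block, and ran from -0.37 to 0.053 when a mouse was left out. That of Lama4 in miR-Ctrl BDL turned to 0.35 with library size alone. With the longest transcript as length, the share of Lama2 was 9.38% in miR-Ctrl BDL and 13.2% in anti-miR BDL, that of Lama4 27.1%, 14.8% and 19.0% in the 3 groups, and that of Lamb1 50.4%, 49.7% and 47.7%. The order of Lamb1 and Lamb2 by level, and the place of Lama4 among the alpha chains, thus depend on the length used. The cause of the changes with a mouse left out was not tested.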
